A study of Mus musculus with 4 samples.

Results

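Solute carriers are the membrane proteins that move nutrients, metabolites, metals and ions across the plasma membrane and the membranes of organelles, and their gene symbols give a family number and a member number. They were followed here in long-term haematopoietic stem cells (HSC), which maintain blood formation for life, from wild-type (WT) mice and from mice labelled Sin3B KO. Every gene was taken whose symbol starts with Slc, a number, the letter a and a number, with the erythrocyte anion exchanger Slc4a1 set aside. This gave 148 of the 9244 genes with library values. Of these, 4 carry a carrier's name with a suffix and are no carriers: Slc2a4rg.ps, Slc4a1ap, Slc7a6os and the scaffold protein gene Slc9a3r1. The other 144 were 32 genes of the Slc25a family, 19 amino acid carriers, 6 glucose carriers and 87 carriers of other substrates. Carriers whose family number is followed by another letter, such as most nucleotide sugar carriers, are outside the rule.

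Both genotypes were C57BL/6 mice aged 8 to 12 weeks, and the cells were sorted as LSK (lineage-negative, Sca-1-positive, Kit-positive) without CD34 and Flk2. Each group had 2 libraries of polyA RNA (n = 2 throughout), named WT 1, WT 2, Sin3B KO 1 and Sin3B KO 2 below. The labels give no allele, deleting strain or time of deletion for the knockout, and leave unsaid whether libraries of 1 genotype are from separate mice. The p-values therefore measure only how far these libraries spread, which may be technical. The comparison asks which genes depend on Sin3B, a corepressor that carries histone deacetylases.

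Carriers of the Slc25a family sit in the inner mitochondrial membrane, with few exceptions, and exchange metabolites, phosphate, nucleotides and iron between cytosol and matrix. Amino acid carriers feed protein synthesis and the lysosomal mTORC1 sensor, and glucose carriers feed glycolysis, on which quiescent stem cells are known to rely. Iron carriers of the plasma membrane and the mitochondrion serve haem synthesis, which is most active in erythroid cells.

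Sin3b itself was at 1522 and 1825 normalised reads in WT against 755.4 and 646.5 in the KO libraries (log2 fold change -1.25, SE 0.22), so the labels and the gene go the same way. The HSC markers fixed for the check were all listed (10 of 10), with a summed level between 74579 and 86168. Markers of other cells were present too. The neutrophil and monocyte list (13 of 14 listed) summed to 79595 in WT 1, 14865 in WT 2, 55127 in Sin3B KO 1 and 24864 in Sin3B KO 2. The erythroid list (8 of 11 listed) summed to 6304, 3082, 11562 and 4773 in the same order, and 0 of the listed markers in either list were at 0 in a library. In bulk RNA, fewer cells of a type and less RNA per cell cannot be told apart.

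A carrier had between 60 and 9460 reads in a library, with a median of 565. Counting error alone was 12.9% at the lowest of these counts and 4.21% at the median. The spread between libraries was wider: the paired WT libraries differed by a median ratio of 1.25 over the 144 carriers, and by over 2-fold for 13 of them. The KO libraries differed by a median ratio of 1.20, and by over 2-fold for 11.

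Promoter sequence is shown for 6 carriers, to let the letters be read beside the values. These are the 3 carriers with an unadjusted p under 0.05 that are both named by the rule for named genes and present in the promoter table (Slc31a1, Slc39a9 and Slc8a1), and 3 carriers with the E-box CACGTG, the site bound by Myc, Max and the Mxd proteins that recruit Sin3 (Slc20a1, Slc25a1 and Slc38a5). Each is the 250 bases before the RefSeq start site on GRCm38.p6, written 5′ to 3′ on the gene's strand; the authors' build was mm9. Capitals mark any match to the 6 motifs that were searched.
Slc31a1, chr4:62360451-62360700, plus strand: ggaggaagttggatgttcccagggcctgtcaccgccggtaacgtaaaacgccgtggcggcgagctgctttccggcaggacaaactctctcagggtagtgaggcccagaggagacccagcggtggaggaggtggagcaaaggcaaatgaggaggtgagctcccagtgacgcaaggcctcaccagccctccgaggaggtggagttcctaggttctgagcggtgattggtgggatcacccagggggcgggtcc
Slc39a9, chr12:80643965-80644214, plus strand: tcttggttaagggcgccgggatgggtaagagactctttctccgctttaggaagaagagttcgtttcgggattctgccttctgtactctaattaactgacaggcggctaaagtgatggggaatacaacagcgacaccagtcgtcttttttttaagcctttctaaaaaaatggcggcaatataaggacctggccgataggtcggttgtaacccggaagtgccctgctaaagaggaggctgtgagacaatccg
Slc8a1, chr17:81738388-81738637, minus strand: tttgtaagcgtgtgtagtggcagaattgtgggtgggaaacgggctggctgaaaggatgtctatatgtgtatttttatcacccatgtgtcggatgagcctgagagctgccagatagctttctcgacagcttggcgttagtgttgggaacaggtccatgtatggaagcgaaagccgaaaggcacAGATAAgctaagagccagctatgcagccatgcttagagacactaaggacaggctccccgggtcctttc
Slc20a1, chr2:129198523-129198772, plus strand: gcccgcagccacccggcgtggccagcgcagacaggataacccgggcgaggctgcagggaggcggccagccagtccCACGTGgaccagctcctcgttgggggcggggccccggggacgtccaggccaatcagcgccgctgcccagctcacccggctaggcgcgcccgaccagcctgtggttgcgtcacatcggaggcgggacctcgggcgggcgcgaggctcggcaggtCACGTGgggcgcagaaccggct
Slc25a1, chr16:17928220-17928469, minus strand: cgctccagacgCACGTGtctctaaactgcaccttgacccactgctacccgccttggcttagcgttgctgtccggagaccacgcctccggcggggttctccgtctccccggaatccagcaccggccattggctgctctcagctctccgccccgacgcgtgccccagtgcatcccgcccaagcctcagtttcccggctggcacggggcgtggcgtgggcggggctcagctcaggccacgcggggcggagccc
Slc38a5, chrX:8271131-8271380, plus strand: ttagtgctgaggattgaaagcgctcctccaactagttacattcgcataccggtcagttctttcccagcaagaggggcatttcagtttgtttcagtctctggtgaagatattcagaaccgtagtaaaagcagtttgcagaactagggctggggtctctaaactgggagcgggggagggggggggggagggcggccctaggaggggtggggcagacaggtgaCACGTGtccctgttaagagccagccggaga

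A RefSeq promoter was found for 101 of the 144 carriers. The E-box CACGTG stood in at least 1 window of 20 of them (19.8%), against 730 of 7079 genes with library values and a promoter in the table (10.3%) and 6.86% of all genes in that table. Slc20a1 held it at 2 places. The other motifs, searched on both strands, were AGATAA, the GATA site (10.9% of carriers, 7.13% of genes with library values), TGATGNAA, the core of the ATF4 site of amino acid response genes (1.98% and 2.27%), TTTCCCGC, an E2F site (1.98% and 2.16%), TGACGTCA, the cyclic AMP response element (0.99% and 2.99%), and the NRF1 site (0.99% and 2.12%). No window of a member held overlapping matches of different motifs. The 20 carriers with an E-box had -0.06 as their median log2 fold change, 9 above 0 and 0 at an unadjusted p under 0.05, and the 81 without one had a median of -0.03, 38 above 0 and 3 at that p. A match is a run of letters and was not tested for binding.

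Levels are compared between genes per kilobase (kb) of exon, since longer transcripts give more reads. The ADP/ATP exchangers of the inner mitochondrial membrane led. Slc25a5 was at a mean of 4646 normalised reads per kb, with single libraries from 3580 to 5383, and Slc25a4 at 2692 (2240 to 2891). The sugar carrier Slc50a1 was at 2547 per kb (2197 to 2844) and the haem transporter Slc48a1 at 2303 (1940 to 2551). The library ranges of Slc25a4, Slc50a1 and Slc48a1 overlap, so their order is not set by these libraries, whereas that of Slc25a5 lies above all 3. Next came Slc25a11, the oxoglutarate and malate exchanger, at 1638 (1550 to 1787), Slc35a4 of the secretory pathway at 1225 (810.5 to 1459) and the zinc transporter Slc39a7 at 1185 (1052 to 1288). The highest amino acid carrier was Slc3a2, the CD98 heavy chain that brings Slc7 partners to the surface, at 459.1 per kb (392.5 to 546.0). By class, the median level was 184.6 per kb for Slc25a genes, 188.1 for glucose carriers, 116.5 for amino acid carriers and 111.7 for the others. Carriers took between 1.23% and 1.31% of the listed reads in the 4 libraries, and Slc25a genes between 28.9% and 30.3% of the carrier reads.

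**Figure D1:**
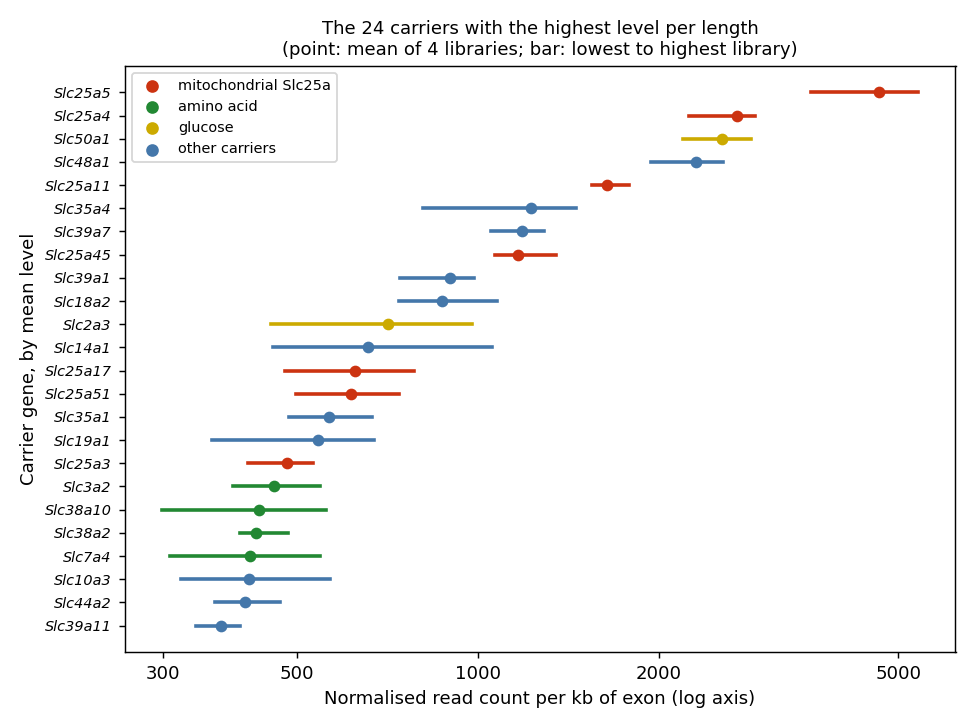
The 24 carriers with the highest level per length. The x axis gives normalised reads per kb of exon on a log axis, each point is the mean of the 4 libraries and each bar runs from the lowest to the highest library. Slc25a5 stands first at 4646, followed by Slc25a4, Slc50a1 and Slc48a1, whose bars overlap.

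Between the genotypes, no carrier passed the adjusted test. The median over the 144 carriers, as log2 fold change of Sin3B KO over WT, was -0.03 with 68 above 0, against 0.03 over all 9244 genes tested. By limma's moderated test 0 carriers passed a Benjamini-Hochberg adjusted p of 0.05, as did 0 of all genes (0%). The smallest adjusted p was 0.548. At an unadjusted p under 0.05, 7 carriers (4.86%) were higher in the KO against 4.97% of all genes, and 3 (2.08%) were lower against 3.95%. These shares are near those of all genes or below them. The groups did not overlap, with the KO pair higher, in 26 carriers (18.1%) against 24.7% of all genes, and with the KO pair lower in 25 (17.4%) against 19.4%. The counts at an unadjusted p under 0.05 moved with the library left out, among all genes as among the carriers. The median width of a 95% interval reached 0.60 on the log2 scale to either side, a factor of 1.51. After adjustment over all genes even the 2.76-fold difference of Slc25a35, described next, did not pass. The authors' deposited table calls 1 carrier, Slc25a35, at an adjusted p under 0.05, against 0.325% of the genes with library values. At an unadjusted p under 0.05 the authors' deposited table has 8 carriers higher, against 5.56% of those genes, and 2 lower, against 4.2%.

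**Figure D2:**
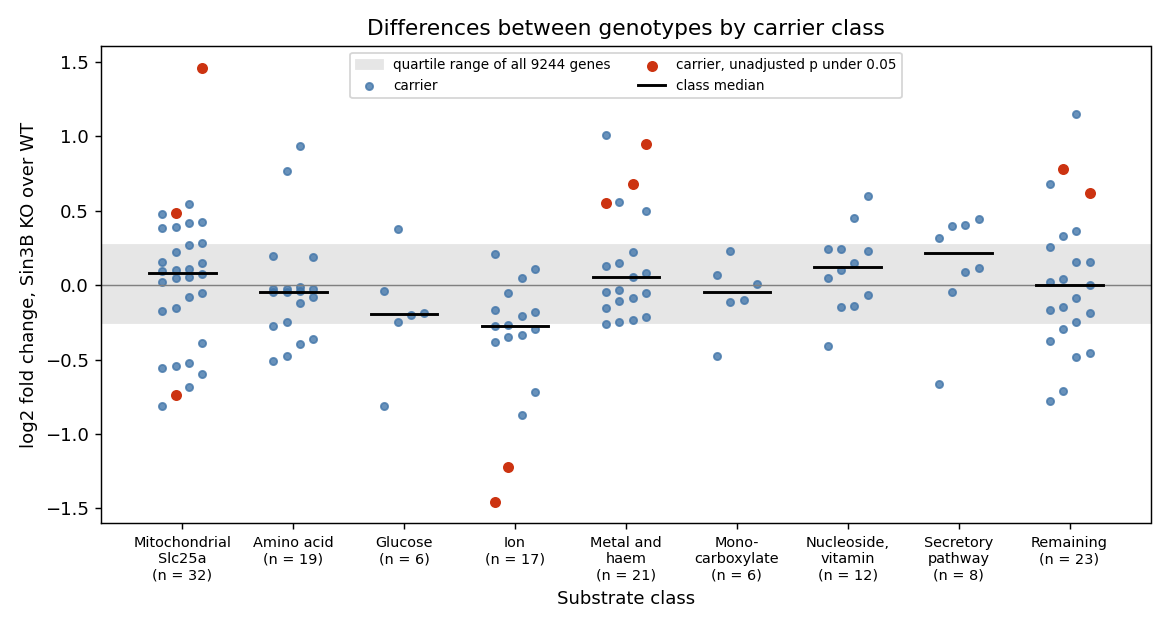
Log2 fold change of each of the 144 carriers by substrate class, with class medians as black lines and the quartile range of all 9244 genes as a grey band. Red points are the 10 carriers with an unadjusted p under 0.05, and none passed after adjustment. The ion class has the lowest median, at -0.27.

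The Slc25a family went both ways, with 20 of 32 genes above 0 (62.5%, against 53.4% of all genes). The median log2 difference was 0.08 (-0.0013 without WT 1). By limma 0 passed after adjustment. At an unadjusted p under 0.05 by limma, 2 were higher (6.25%, against 4.97% of all genes) and 1 lower (3.125%, against 3.95%). The KO pair was above the WT pair in 9 genes (28.1%, against 24.7% of all genes) and below it in 6 (18.75%, against 19.4%). Slc25a35 (ENSMUSG00000018740), a member whose substrate is not well defined, was at 209.8 and 347.2 in WT against 610.3 and 910.5 in the KO. Both KO libraries were above both WT libraries, by 2.76-fold (log2 fold change 1.46, SE 0.34, unadjusted p = 0.0021, adjusted p = 0.548 by limma). The authors' deposited table gives a log2 fold change of 0.97 and an adjusted p of 0.045. Each library left out in turn gave between 1.10 and 1.82. Of the 50-base stretches of the Slc25a35 transcripts, 25% also occur in transcripts of the gene Rangrf on one strand or the other. Rangrf was at 167.6 and 120.7 in WT against 224.9 and 321.9 in the KO (log2 fold change 0.92, SE 0.41, unadjusted p = 0.055), so both genes had higher values in the KO. Whether the counting used strand is not given in the sources used here, and reads from the shared stretch cannot be told apart.

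The mitochondrial iron importer Slc25a37 (mitoferrin 1), which supplies iron for haem and iron-sulphur clusters, went the other way. Its values were 1877 and 1503 in WT against 1001 and 1016 in the KO. The KO libraries lay close together and below both WT libraries, by 1.66-fold (log2 fold change -0.74, SE 0.21, unadjusted p = 0.0076, adjusted p = 0.548 by limma; the authors' deposited table gives -0.62 and an adjusted p of 0.187). Its paralog Slc25a28 (mitoferrin 2) was at 241.7 and 437.2 against 166.3 and 298.7, with overlapping groups (log2 fold change -0.54, SE 0.43, and -0.12 without WT 2 or without Sin3B KO 1). Slc25a38, the mitochondrial glycine importer of haem synthesis, was at 546.1 and 669.6 in WT against 962.1 and 470.9 in the KO, the highest and the lowest of the 4 values both in KO libraries. Slc25a44, an importer of branched-chain amino acids, had tight groups, at 778.7 and 770.5 in WT against 1108 and 1059 in the KO (log2 fold change 0.48, SE 0.21, unadjusted p = 0.049, adjusted p = 0.548 by limma).

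Among the most abundant Slc25a genes, Slc25a5 was at 5892 and 7400 in WT against 8860 and 8436 in the KO, with both KO values above (log2 fold change 0.39, SE 0.20, unadjusted p = 0.079). Of its 50-base stretches 33.8% occur in other transcripts, 21.1% in Gm5560, so its counts are uncertain. Slc25a4, with none shared, was at 5270 and 6803 against 6637 and 6624, and WT 2 was the highest. Together these exchangers took 27.7% of the Slc25a reads in WT 1, 31.9% in WT 2, 33.2% in Sin3B KO 1 and 32.7% in Sin3B KO 2. The phosphate carrier Slc25a3 was at 2714 and 2956 against 2749 and 2302, and Slc25a11 at 3286 and 3788 against 3326 and 3494, both with overlapping groups. The citrate carrier Slc25a1 was at 232.6 and 474.8 against 166.3 and 288.9, and Slc25a32, a folate and FAD carrier, at 281.6 and 91.98 against 129.8 and 64.21. In the first of these the libraries numbered 2 were the higher ones in each genotype and in the second the libraries numbered 1, with a wide error for both (log2 fold changes -0.60, SE 0.44, and -0.81, SE 0.68). Single libraries set both: Slc25a1 ranged from -1.11 without WT 1 to -0.085 without WT 2, and Slc25a32 from -1.61 without WT 2 to -0.010 without WT 1.

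Of the amino acid carriers, 15 of 19 had a log2 fold change below 0 (78.9%, against 46.6% of all genes), with a class median of -0.04, and 1 library set that direction. None had an unadjusted p under 0.05 (0 of 19 by limma, and 1, Slc38a5, in the authors' deposited table). The KO pair was below the WT pair in 3 (15.8%, against 19.4% of all genes). It was above the WT pair in 1 (5.26%, against 24.7%), the leucine and arginine exchanger Slc7a7. Without WT 2 the count below 0 was 9 of 19 and the class median 0.09; this is the library in which amino acid carriers were highest, with a class median 0.19 above the mean of the 4 libraries on the log2 scale. Slc7a1, the carrier of arginine and lysine, was at 461.8 and 424.3 in WT against 328.7 and 294.3 in the KO, both below (log2 fold change -0.51, SE 0.28, unadjusted p = 0.103). Slc38a1, a sodium-coupled glutamine carrier, was at 2218 and 2708 against 1988 and 2138 (log2 fold change -0.25, SE 0.20, and -0.11 without WT 2), also without overlap. The lysosomal proton-coupled carrier Slc36a1 was the third with lower groups, at 234.9 and 401.6 against 214.3 and 227.4 (log2 fold change -0.47, SE 0.37). WT 2 alone was high for Slc36a1, and without it the value was -0.089.

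The glutamine carriers Slc1a5 and Slc38a2 overlapped between the genotypes. Slc1a5 was at 672.7 and 1116 in WT against 710.3 and 723.2 in the KO, with WT 2 alone high. Slc38a2 was at 4276 and 3621 against 3666 and 3562, with WT 1 the highest. Slc3a2 was at 1385 and 1927 against 1566 and 1603, so its KO values lay between the WT values, and its partner Slc7a5, the large neutral amino acid carrier, did the same at 139.1 and 384.8 against 229.7 and 229.2. The fold changes of Slc3a2 and Slc7a5 were -0.04 (SE 0.22) and -0.01 (SE 0.49), and a 95% interval for Slc7a5 still spans over 2-fold either way. Slc38a10 was at 3239 and 2382 against 3596 and 1921, higher in the libraries numbered 1 of both genotypes. Slc38a5, a glutamine and glycine carrier, was at 205.2 and 125.6 in WT against 537.3 and 176.6 in the KO, where Sin3B KO 1 alone was high (log2 fold change 0.94, SE 0.55, and 0.14 without Sin3B KO 1). The cystine carrier Slc7a11 was not listed under that symbol, so it had no value to compare. The lowest mean of a listed gene was 120.2.

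Genes beside the amino acid carriers were taken from lists. Of the amino acid response, which ATF4 drives when amino acids run short, 14 genes were measured, 10 were above 0 (against 53.4% of all genes) and the list median was 0.07. None passed after adjustment, while 3 were higher (against 4.97% of all genes) and 1 lower (against 3.95%) at an unadjusted p under 0.05 by limma. Atf4 itself was at 2211 and 2338 against 2516 and 2168, and Asns, asparagine synthetase, at 1044 and 1274 against 1299 and 1094, with overlapping groups. The 3 higher ones make serine, one-carbon units and proline: Psat1 at 1147 and 1662 against 2245 and 1949 (log2 fold change 0.60, SE 0.24), Mthfd2 at 513.1 and 460.9 against 1064 and 634.1 (0.76, SE 0.29) and Aldh18a1 at 2167 and 2184 against 3252 and 2695 (0.44, SE 0.19). The lower one was the lipoprotein receptor gene Vldlr, at 485.7 and 350.1 against 192.2 and 146.3 (-1.29, SE 0.35). Of 20 measured genes of amino acid sensing by mTORC1, 14 were above 0 (against 53.4% of all genes), with a median of 0.09 and 0 at an unadjusted p under 0.05. The 5 Lamtor genes, which anchor the sensor to the lysosome, had log2 fold changes from 0.08 (Lamtor5, SE 0.23) to 0.36 (Lamtor1, SE 0.23). Rptor, the substrate-binding subunit of mTORC1, was at 572.4 and 801.2 against 447.9 and 500.3 (-0.52, SE 0.27), and Fnip1, a folliculin partner, at 1042 and 755.7 against 666.1 and 632.3 (-0.45, SE 0.25), both with lower KO groups.

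Of the 6 glucose carriers, 5 were below 0 (83.3%, against 46.6% of all genes). The class median was -0.19 on the log2 scale (-0.05 without Sin3B KO 1), while 0 had an unadjusted p under 0.05 (limma). Slc2a3 (Glut3), the most abundant Slc2a gene per length, was the one above 0. It was at 3286 and 5716 in WT against 4464 and 7078 in the KO (log2 fold change 0.37, SE 0.31), and both libraries numbered 2 were above both numbered 1, a wider gap than between the genotypes. Slc2a1 (Glut1), the widespread basal glucose carrier, was at 1156 and 1201 in WT against 963.0 and 1116 in the KO. Its KO values were lower without overlap, but the gap was small against its error (log2 fold change -0.18, SE 0.21). Slc2a10 was at 228.0 and 227.5 against 174.9 and 224.7, and Slc2a8 at 187.0 and 181.0 against 164.4 and 65.99, where Sin3B KO 2 alone was far lower (log2 fold change -0.16 without it and -0.81 with it, SE 0.56). Slc2a9, which mainly carries urate, was at 196.1 and 90.01 against 123.0 and 101.7. Slc50a1 was at 3602 and 3944 against 3221 and 4169, with overlapping groups.

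Among 13 measured partners and regulators of the carriers, 8 were above 0 (61.5%, against 53.4% of all genes) and 0 had an unadjusted p under 0.05 (limma). Txnip, which lowers glucose uptake by removing glucose carriers from the membrane, was at 17220 and 21205 in WT against 13634 and 16156 in the KO, lower in both (log2 fold change -0.36, SE 0.21). Its relative Arrdc4 was at 449.2 and 1009 against 403.7 and 369.2 (-0.80, SE 0.37). Hk1, the hexokinase that traps glucose in the cell, was at 5663 and 7108 against 9221 and 7822, higher in both KO libraries (0.42, SE 0.20). Bsg, the chaperone of the lactate carriers, overlapped at 3878 and 4211 against 4733 and 3677. The lactate and pyruvate carrier Slc16a1 was at 671.5 and 718.1 against 530.5 and 470.0, lower in both KO libraries (-0.47, SE 0.24, unadjusted p = 0.079).

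Of the 21 metal and haem carriers, 3 were higher in the KO at an unadjusted p under 0.05 (14.3%, against 4.97% of all genes) and 0 lower (limma). In all, 11 were above 0 (52.4%, against 53.4% of all genes) and the median was 0.05. The KO pair was above the WT pair in 6 (28.6%, against 24.7% of all genes) and below it in 1 (4.76%, against 19.4%). Slc11a2 (DMT1), the importer of ferrous iron, was at 565.5 and 618.2 in WT against 1379 and 942.6 in the KO. The WT libraries were close together and both KO libraries stood clear of them, by 1.93-fold (log2 fold change 0.95, SE 0.25, unadjusted p = 0.0052, adjusted p = 0.548 by limma; the authors' deposited table gives 0.75 and an adjusted p of 0.133). The copper importer Slc31a1, whose promoter is printed above, was at 883.6 and 1029 against 1570 and 1492, without overlap and with narrow groups (log2 fold change 0.68, SE 0.21, unadjusted p = 0.010). The zinc carrier Slc39a9, also printed above, was at 1279 and 1082 against 1633 and 1828 (log2 fold change 0.55, SE 0.21, unadjusted p = 0.027). Left out in turn, each library gave 0.57 to 0.79 for Slc31a1 and 0.43 to 0.67 for Slc39a9.

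The iron exporter Slc40a1 (ferroportin) was at 815.2 and 281.9 in WT against 1264 and 738.4 in the KO, with overlapping groups (log2 fold change 1.01, SE 0.47, unadjusted p = 0.062). WT 2 was the low library, and without it the log2 fold change was 0.24. The golgi zinc carrier Slc30a6 was at 305.6 and 242.3 against 423.9 and 381.7 (0.56, SE 0.30). Slc39a7 was at 2718 and 2941 against 3264 and 3327 (0.22, SE 0.18), and 74.5% of its 50-base stretches also occur in Gm20427. Slc48a1 overlapped at 5338 and 7018 against 6441 and 6542.

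Of the ion exchangers and cotransporters, 14 of 17 had a log2 fold change below 0 (82.4%, against 46.6% of all genes), with a class median of -0.27. The KO pair was below the WT pair in 8 (47.1%, against 19.4% of all genes) and above it in 1 (5.88%, against 24.7%), the phosphate carrier Slc20a1. Leaving out each library in turn left between 13 and 15 of 17 below 0. By limma 0 passed after adjustment, and 0 were higher and 2 lower (11.8%, against 3.95% of all genes) at an unadjusted p under 0.05. Slc20a2, the other phosphate importer, was at 210.9 and 184.0 in WT against 71.12 and 71.34 in the KO. Its KO libraries were nearly equal and 2.74-fold below WT (log2 fold change -1.45, SE 0.51, unadjusted p = 0.020, adjusted p = 0.548 by limma; the authors' deposited table gives -0.73 and an adjusted p of 0.298). The sodium and calcium exchanger Slc8a1 was at 306.7 and 373.9 against 85.54 and 243.5 (log2 fold change -1.22, SE 0.51, unadjusted p = 0.041). Sin3B KO 1 was the low library, and without it the value was -0.47. Among the others with lower groups were the bicarbonate carriers Slc4a2 and Slc4a7 and the chloride cotransporters Slc12a2 and Slc12a7, with log2 fold changes from -0.87 (Slc4a7, SE 0.40) to -0.27 (Slc12a7). That of Slc12a2 was -0.38, and -0.042 without WT 2. Slc20a1 was at 1504 and 1698 in WT against 1889 and 1810 in the KO (0.21, SE 0.19).

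**Figure D3:**
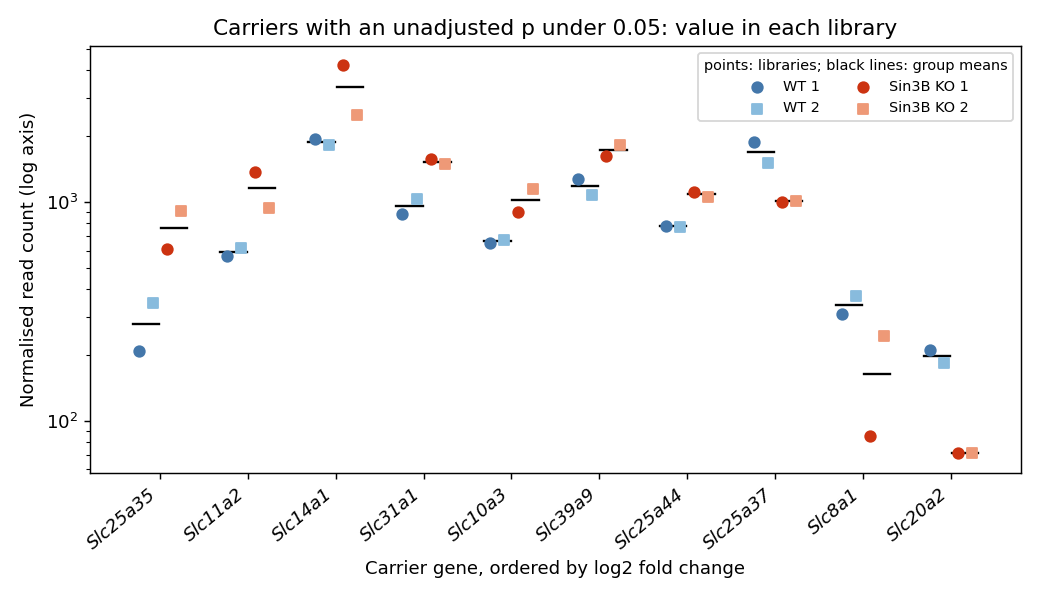
Normalised read count (log axis) of the 10 carriers with an unadjusted p under 0.05, one point per library and a black line for each group mean. In all 10 the 2 KO points lie on one side of the 2 WT points. Sin3B KO 1 stands apart from Sin3B KO 2 for Slc14a1 and Slc8a1, while the KO points of Slc20a2 and Slc25a37 nearly coincide.

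Among the 23 remaining carriers of no named class, 2 were higher at an unadjusted p under 0.05 by limma (8.70%, against 4.97% of all genes). In that class 0 were lower (against 3.95%). The secretory, nucleoside and vitamin, and monocarboxylate classes had 0 in either direction. The urea transporter Slc14a1, which also marks red cells as the Kidd antigen, was at 1947 and 1828 in WT against 4220 and 2496 in the KO (log2 fold change 0.78, SE 0.26, unadjusted p = 0.015, adjusted p = 0.548 by limma; the authors' deposited table gives 0.66 and an adjusted p of 0.183). Both KO libraries were above WT, Sin3B KO 1 by far, and without that library the log2 fold change was 0.40. Slc10a3 was at 651.0 and 674.5 against 899.6 and 1149 (0.62, SE 0.23, unadjusted p = 0.027). Of the 8 carriers of the secretory pathway 6 were above 0 (75%, against 53.4% of all genes), and Slc35a4 was at 2654 and 4245 against 4367 and 4779. The 12 nucleoside and vitamin carriers had a median of 0.12 and the 6 monocarboxylate carriers of -0.05. The fatty acid carrier Slc27a4 was at 168.7 and 378.8 against 152.8 and 295.2, lower in the libraries numbered 1 of both genotypes. The 4 genes with a carrier's name that are no carriers had log2 fold changes between -0.17 and 0.13, with overlapping groups.

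Sin3B KO 1 was the highest library for 29 of the 144 carriers, against 34 for Sin3B KO 2, 37 for WT 1 and 44 for WT 2. A few carriers stood far above the other libraries there, and it was also the library with the highest erythroid marker sum. Slc45a3 was at 94.63 and 149.4 in WT against 681.4 and 102.6 in the KO, so 1 library carries its whole difference (log2 fold change 1.15, SE 0.78, and -0.21 without it). Its value in Sin3B KO 1 was 4.56 times the next highest library, against 2.62 times for Slc38a5, 1.69 for Slc14a1, 1.55 for Slc40a1, 1.49 for Slc46a3 and 1.46 for Slc11a2. The erythroid markers Gata1, at 1004, 1063, 3144 and 1842 in WT 1, WT 2, Sin3B KO 1 and Sin3B KO 2, and Ermap, at 1290, 784.3, 3708 and 1108, were also highest there. The late marker Alas2 was at 755.9, 7.91, 554.6 and 37.46, highest in WT 1. Epb4.2 was also highest in WT 1, at 293.0, 73.19, 229.7 and 113.3. The 8 listed erythroid markers all had a log2 fold change above 0, a difference between means of log2 values, with a median of 0.64. On that scale the low values of Alas2 and Epb4.2 in WT 2 weigh heavily. Some other lists did likewise: 4 of 4 listed macrophage and dendritic markers (median 0.66), 4 of 5 B lineage markers (0.61) and 2 of 2 T and NK markers (0.29) were above 0. Their summed levels were also highest in Sin3B KO 1, at 7996, 3968 and 2937, as was that of the 3 listed endothelial and stromal markers, at 3417. Not all lists did. The sums of the neutrophil and monocyte, megakaryocyte, and mast cell and basophil lists were highest in WT 1, at 79595, 10382 and 2288. In those lists 8 of 13, 3 of 6 and 2 of 2 listed markers were above 0 (medians 0.15, 0.03 and 0.75). The part of these cells in the values of the carriers was not tested. Without Sin3B KO 1 the log2 fold change of Slc11a2 was 0.67, that of Slc40a1 0.62 and that of Slc25a37, which was not high in that library, -0.73.

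**Figure D4:**
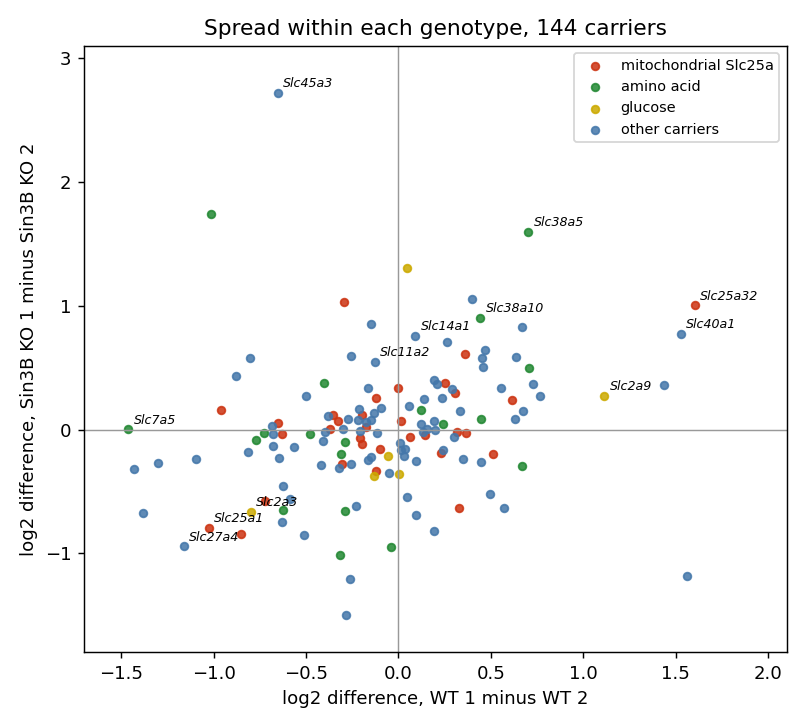
Spread within each genotype for the 144 carriers: the x axis is the log2 difference WT 1 minus WT 2 and the y axis Sin3B KO 1 minus Sin3B KO 2. Points far from the centre, such as Slc45a3, Slc38a5, Slc40a1 and Slc25a32, differ between libraries of 1 genotype by more than most carriers differ between genotypes.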

How the data were processed

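RNA sequencing libraries of sorted stem cells (2 WT, 2 Sin3B KO) were analysed. Per the labels, a SMARTer kit, which copies full-length cDNA from few cells, was used. Bowtie, DESeq and the mouse build mm9 are named, per the submitters' processing notes, without versions; for the counter, the strand setting and the gene annotation nothing is stated in those sources. The deposited table has 9796 genes; the lowest mean of a gene with values was 120.2. Values per library are a signal, namely read counts that the authors divided by a size factor: 100% of the values were whole multiples of 1 step within 0.01 of a step. On that basis the listed genes held 9950979 to 13700630 reads per library. Further columns hold, per the file headers, the authors' log2 fold changes, test scores (fold change over error), p-values and adjusted p-values. The 552 genes without library values were left out; 0 of them match the name rule.

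Here limma 3.58.1 (R 4.3.3) was fitted to log2(value + 1) of all 9244 genes with a trended prior, with Benjamini-Hochberg adjustment over all of them; fold changes are on that scale, which understates those of low genes. Genes needed a value of at least 1 in 2 libraries, which all of them had. The test was checked on simulated data. A count model had been planned as an alternative and was not run; the normalised values were tested throughout. The members, lists and tests were chosen with earlier results of these data known. Named carriers were a set of core carriers (every Slc2a gene among them), up to 4 per class and direction with the smallest unadjusted p under 0.05 and groups that did not overlap, the 3 per class with the highest level per kb of exon, any with an adjusted p under 0.05 in any fit or the authors' table, and the 2 per class that differed most, and in the same direction in both genotypes, between libraries numbered 1 and 2. Other carriers named were chosen after their values were seen. Exon lengths (GENCODE M21, GRCm38) were the union of exons and matched 146 of 148 members by Ensembl identifier; 50-base stretches were compared with all M21 transcripts on both strands. Alternatives were pseudocounts of 0.1 and 5, a mean of at least 500, no filter, trimmed mean (TMM) scaling, quantile normalisation, a block for the replicate number, and leaving out each library.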

Additional observations from a re-analysis of the deposited data

How the results depend on the processing

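With 2 libraries per genotype, 1 library can decide a value. Over the libraries left out in turn, 0 carriers passed after adjustment, those at an unadjusted p under 0.05 numbered 2 to 12 higher and 1 to 7 lower, and those with groups apart 44 to 54 higher (30.6% to 37.5%, against 36.1% to 41.2% of all genes) and 45 to 57 lower (31.2% to 39.6%, against 29.9% to 36%), where 1 library then stands for a group. Class medians of the log2 fold change ranged from -0.0013 to 0.14 (Slc25a), -0.18 to 0.09 (amino acid), -0.19 to -0.049 (glucose) and -0.028 to 0.032 (other); amino acid carriers below 0 numbered 9 to 14. When a mean of 500 was required, 1 carrier was lower at an unadjusted p under 0.05 by limma (1.28%, against 3.1% of all genes). Lower groups were then found in 9 (11.5%, against 14.4%). The medians of glucose and other carriers were then -0.041 and 0.085. The median of other carriers was -0.050 under TMM scaling and 0.018 after quantile normalisation. The cause of these shifts was not tested, beyond the fewer genes or samples. The pseudocounts moved no count and no median by more than the spread between libraries. Omitting the filter could change nothing, since every gene had passed it. The planned count models were not run. The counts of amino acid and ion carriers below 0 under these settings were chosen after seeing the data.

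With the replicate number as a block, 1 carrier passed after adjustment, Slc25a35 (log2 fold change 1.46, limma adjusted p = 0.0283), among 27 genes in all (0.292%), and 16 carriers were higher (11.1%, against 9.17% of all genes) and 5 lower (3.47%, against 7.86%) at an unadjusted p under 0.05. What the number marks is not stated, and the descriptions number the same libraries 1 and 3. Differences between the numbered libraries correlated across genes at r = 0.465 between the genotypes over 9244 genes, and at 0.238 over the 144 carriers; genes are not independent replicates.

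Of the 35 carriers named by the rule, the direction turned after quantile normalisation for Slc25a4 (-0.047), Slc48a1 (-0.11) and Slc7a5 (0.21). With each library left out in turn it turned for Slc1a5 (-0.64 to 0.091), Slc25a11 (-0.15 to 0.053), Slc25a38 (-0.36 to 0.67), Slc25a4 (-0.037 to 0.33), Slc27a4 (-0.83 to 0.33), Slc2a3 (-0.024 to 0.77), Slc2a9 (-0.80 to 0.31), Slc38a10 (-0.53 to 0.37), Slc3a2 (-0.28 to 0.19), Slc48a1 (-0.11 to 0.28), Slc50a1 (-0.23 to 0.15) and Slc7a5 (-0.74 to 0.72).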
